A study of Mus musculus with 4 samples.

Results

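The crystallins are the soluble proteins that fill the fiber cells of the eye lens, and their dense packing gives the lens its refractive power. The 8 genes described here encode the alpha and beta crystallins. The alpha crystallins, from Cryaa and Cryab, are small heat shock proteins that act as chaperones and hold unfolding proteins in solution. The beta crystallins are built from Greek key folds and assemble into oligomers, and they fall into an acidic group (Cryba1, Cryba2, Cryba4) and a basic group (Crybb1, Crybb2, Crybb3). Fiber cells lose their nuclei as they mature, so most crystallin protein is made from transcripts of the differentiating fibers and is then kept for life. The members are the rows of the deposited expression table whose Ensembl identifier belongs to one of these symbols. All 8 were present among the 14924 genes of the table, and all 8 passed the filter on low values.

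The study compared lenses of mice lacking S100A4, a calcium-binding protein of lens fibers, with lenses of WT littermates at 1 month of age. Each genotype had 2 RNA-seq libraries of polyadenylated RNA, each from a pool of 6 to 12 lenses. All mice were on a C57BL/6J background, and the S100A4 null line is a whole-body knockout rather than one limited to the lens. The pools are the replicates, and whether animals of each sex were spread evenly over them is not given in the sources used here. The libraries held 81602367 and 74108017 reads in S100A4 null and 70253985 and 68038158 reads in WT. With 2 pools a genotype, p-values cannot measure variation beyond these pools. In the limma fits, each gene's own spread was combined with the trend over genes of its abundance. For the members that trend weighed 34.3 degrees of freedom, against 2 from the gene's own pools.

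S100a4 itself was read first as a check of the labels. Its normalized count was 14.6 and 18.2 in the S100A4 null libraries and 14420 and 14385 in WT, a log2 difference of -9.70 (SE 0.10, limma adjusted p = 6.42e-41). S100a5, its neighbor gene in the S100 family, stood at 2248 and 2462 in S100A4 null and at 8.35 and 8.76 in WT (log2 difference 7.94, SE 0.17, limma adjusted p = 1.72e-30). Both genes separated the genotypes with no overlap. The tissue label was read from the fiber genes. The membrane channel Mip was at 651160 and 650078 in S100A4 null and at 711929 and 703652 in WT, and the beaded filament gene Bfsp1 was at 666795 and 700675 against 707403 and 720617. All 12 lens fiber markers were above 0 in all 4 libraries.

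The 8 genes lie on 5 chromosomes of the mouse genome (coordinates are of the GRCm38 build, from GENCODE M21). Cryaa (ENSMUSG00000024041) is at chr17:31677807-31681733 on the plus strand and Cryab (ENSMUSG00000032060) is at chr9:50751325-50756636 on the plus strand. Cryba1 (ENSMUSG00000000724) is at chr11:77718615-77725283 and Cryba2 (ENSMUSG00000006546) is at chr1:74889934-74893143, both on the minus strand. The other 4 genes sit together on chromosome 5. Cryba4 (ENSMUSG00000066975, chr5:112246493-112252518, minus strand) and Crybb1 (ENSMUSG00000029343, chr5:112255815-112269585, plus strand) point away from each other with 3296 bases between them. Crybb2 (ENSMUSG00000042240, chr5:113058258-113070117) and Crybb3 (ENSMUSG00000029352, chr5:113075839-113081584) are both on the minus strand with 5721 bases between them. In 4 cases a locus shares bases with another annotated gene. Cryab overlaps Hspb2, another small heat shock protein gene, by 1030 bases on the opposite strand. Cryaa overlaps the antisense gene AC090881.2, Cryba1 overlaps Nufip2 and Crybb2 overlaps the pseudogene Gm43247. The library kit keeps strand, but the strand setting of the read counter is not given in the sources used here, so reads of such neighbors cannot be told apart. The value of Cryab was on average 2192 times that of Hspb2.

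Crystallin promoters are known targets of lens transcription factors of the Maf family. The promoters of 5 beta crystallins are shown, of which Crybb2 alone lacks the core letters that those factors are known to read. RefSeq promoters (build GRCm38.p6) were matched for 7 of the 8 members, Cryaa, Cryba1, Cryba2, Cryba4, Crybb1, Crybb2 and Crybb3. Each sequence below holds the 100 bases before the annotated transcription start, 5′ to 3′ on the gene's own strand. Capitals mark the Maf recognition core TGCTGA, or its reverse complement TCAGCA, and the TATA box TATAAA on the gene's strand. Cryaa and Cryba2 are not printed, and their Maf cores, at -108 and -149, lie outside the 100 bases.
Cryba1, chr11:77725294-77725393, minus strand: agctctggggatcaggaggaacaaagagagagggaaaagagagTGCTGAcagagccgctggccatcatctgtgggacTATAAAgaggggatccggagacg
Cryba4, chr5:112252519-112252618, minus strand: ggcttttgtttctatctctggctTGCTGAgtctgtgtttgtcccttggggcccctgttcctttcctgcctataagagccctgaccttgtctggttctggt
Crybb1, chr5:112255720-112255819, plus strand: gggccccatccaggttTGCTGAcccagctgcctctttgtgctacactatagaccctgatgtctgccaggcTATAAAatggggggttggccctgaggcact
Crybb2, chr5:113070118-113070217, minus strand: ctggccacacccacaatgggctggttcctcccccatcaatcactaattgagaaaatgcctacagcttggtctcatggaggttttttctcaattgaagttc
Crybb3, chr5:113081585-113081684, minus strand: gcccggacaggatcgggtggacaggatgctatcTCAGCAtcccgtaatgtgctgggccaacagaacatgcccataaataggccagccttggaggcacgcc

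In the full window of 250 bases before to 50 bases after the start, TGCTGA on either strand was found in 6 of the 7 member promoters and in 19.5% of the 32851 promoters of the table. Crybb2 was the member without it. The first base of the match lay at -57 in Cryba1, -84 in Crybb1, -67 in Crybb3, -108 in Cryaa and -149 in Cryba2, and Cryba4 held 3 matches, at -182, -135 and -77. TATAAA on the gene's strand was found in 3 of 7 members, at -23 in Cryba1, -30 in Crybb1 and -3 in Cryba2, against 8.32% of all promoters, and none of these overlapped a Maf core. GAANNTTC, part of the heat shock element, was in 0 of 7 members and in 7.86% of all promoters. These matches describe the letters of the windows and are not a measure of binding.

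The members took close to 1 in every 2 reads of a lens library. Together they held 45.86% and 45.90% of the reads in S100A4 null and 47.0% and 46.4% in WT. Both S100A4 null libraries were below both WT libraries, by a difference in means of -0.784 percentage points (45.9% ± 0.0319 in S100A4 null, 46.7% ± 0.436 in WT, SD, n = 2 each). An exact two-sided permutation test gave p = 0.333, which is the smallest p that this test can give with 2 against 2 libraries, so it cannot reach 0.05. The 95% Wilson interval of each share was at most 0.0118 points to either side and covers counting error only. Cryaa alone held 17.1% and 17.7% of the reads in S100A4 null and 17.8% and 17.9% in WT, and it was the gene with the most reads in every library. Crybb2 and Cryba1 were at ranks 2 and 3 in every library, and Cryba2, the least read member, was at rank 14.

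**Figure D1:**
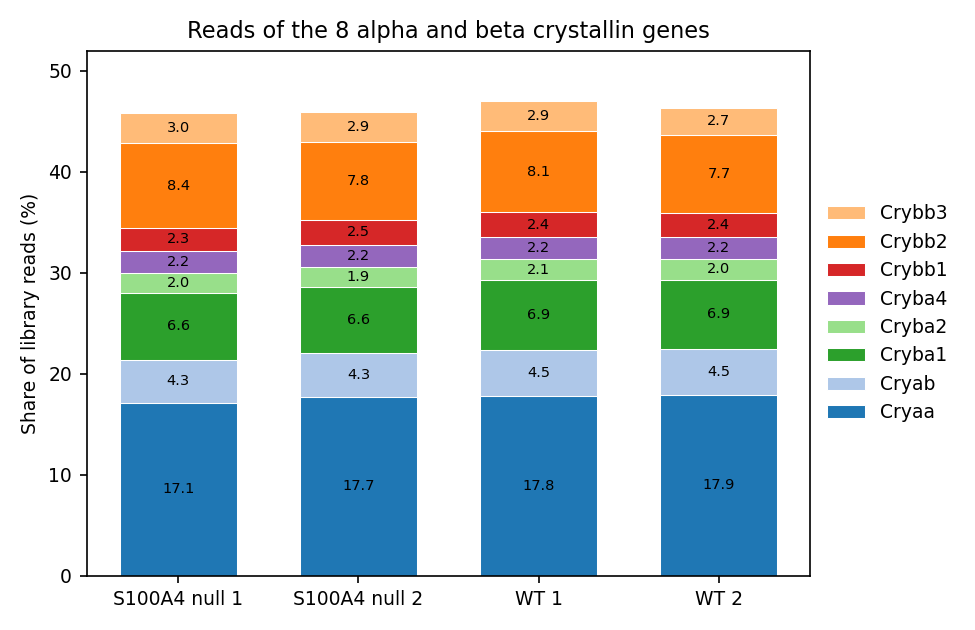
Stacked bars give the percent of all reads of each library (vertical axis) that fell on each of the 8 genes, with the 2 S100A4 null libraries on the left and the 2 WT libraries on the right. The bars end between 45.9% and 47.0%, and Cryaa, at the base, is 17.1% to 17.9% of each library.

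The order of the summed shares depended on 1 abundant transcript outside the crystallins. Gm42418, a predicted gene whose locus holds ribosomal RNA sequence, took 4.23% and 6.46% of the reads in S100A4 null and 3.87% and 5.31% in WT. With Gm42418 left out of the total, the members held 47.9% and 49.1% in S100A4 null and 48.9% and 49.0% in WT, and the genotypes overlapped (difference -0.429 points, exact permutation p = 1). Leaving out the 10 most read genes that are not crystallins gave 50.1% and 51.3% against 51.2% and 51.3%, with the same overlap (difference -0.524 points, exact permutation p = 1). In a bulk sample, fewer cells of a type and less RNA per cell cannot be told apart.

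Gene by gene, no alpha or beta crystallin passed the test between genotypes. In the limma fit over 14780 genes, 0 of the 8 members reached an adjusted p of 0.05, against 6.96% of all genes tested (5.62% higher and 1.33% lower in S100A4 null). Scaling the libraries to equal totals called 785 genes higher and 55 lower in place of 831 and 197, and still none of the members. The 2-fold rule of the study called 0 of 8 members and 3.72% of all genes (3.65% higher and 0.0744% lower). No member had an unadjusted p under 0.05 in limma, and 3 did in edgeR and 3 in DESeq2 on the recovered reads, with 0 past adjustment in both. Over all genes, 17.7% had such a p in limma, 17.7% in edgeR and 10.9% in DESeq2, and the limma and edgeR shares came from separate fits. The 95% intervals of the 8 differences ran from -0.22 to 0.16 on the log2 scale. With the spread taken mostly from the trend over genes, a change beyond 0.856-fold or 1.12-fold lay outside the interval of every member. The members' median log2 difference was -0.05, beside -0.0052 for all genes tested. Of the 8 differences, 7 were below 0, and 6 of 8 were when the libraries were scaled by TMM factors or to equal totals, and in edgeR. The members' median moved to 0.0026 without the first S100A4 null pool and to -0.14 without the second. Scaled to equal totals, the members' median was -0.02, beside 0.02 for all genes.

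Neither alpha crystallin passed the test. Cryaa stood at 11948842 and 13289361 normalized counts in S100A4 null and at 13062948 and 13333352 in WT. The first S100A4 null pool was low, at 90.5% of the WT mean, while the second lay inside the WT range (log2 difference -0.07, SE 0.07, limma adjusted p = 0.714). Cryab, which is also made in heart and skeletal muscle, was at 3005754 and 3255228 in S100A4 null and at 3313835 and 3376305 in WT. Both S100A4 null pools were below both WT pools for Cryab, at 89.9% and 97.3% of the WT mean (log2 difference -0.10, SE 0.06, limma adjusted p = 0.420).

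Among the acidic beta crystallins, 2 of 3 had both S100A4 null values below both WT values, an order found in 23.2% of all genes tested. Cryba1, whose transcript gives both the beta A3 and the beta A1 protein, was at 4591997 and 4967305 in S100A4 null and at 5082751 and 5132208 in WT (log2 difference -0.10, SE 0.06, limma adjusted p = 0.455). Cryba2, the least read member, was at 1380762 and 1453580 in S100A4 null and at 1527990 and 1512610 in WT. Its log2 difference of -0.10 (SE 0.05) was the furthest from 0 among the members and had the lowest limma adjusted p, 0.305. Cryba4 was at 1557430 and 1653149 in S100A4 null and at 1640326 and 1638403 in WT, and the second S100A4 null pool was the highest of the 4 (log2 difference -0.03, SE 0.05, limma adjusted p = 0.830).

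All 3 basic beta crystallins overlapped between genotypes. Crybb1, a fiber cell crystallin, spread the most between the S100A4 null pools, with 1594951 and 1852662 against 1770971 and 1763343 in WT (log2 difference -0.04, SE 0.06, limma adjusted p = 0.794). Its own residual SD was 0.108 on the log2 scale, where the trend over genes of its abundance gave 0.0540. Crybb2, a crystallin whose mutation causes cataract in mice and in people, was at 5850027 and 5821390 in S100A4 null and at 5929849 and 5753520 in WT. Its log2 difference was -0.0013 (SE 0.06, limma adjusted p = 0.995), and both S100A4 null values lay between the WT values. Crybb3 was the member with a mean above WT, at 2116565 and 2184711 against 2129251 and 2023723 (log2 difference 0.05, SE 0.05, limma adjusted p = 0.701).

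**Figure D2:**
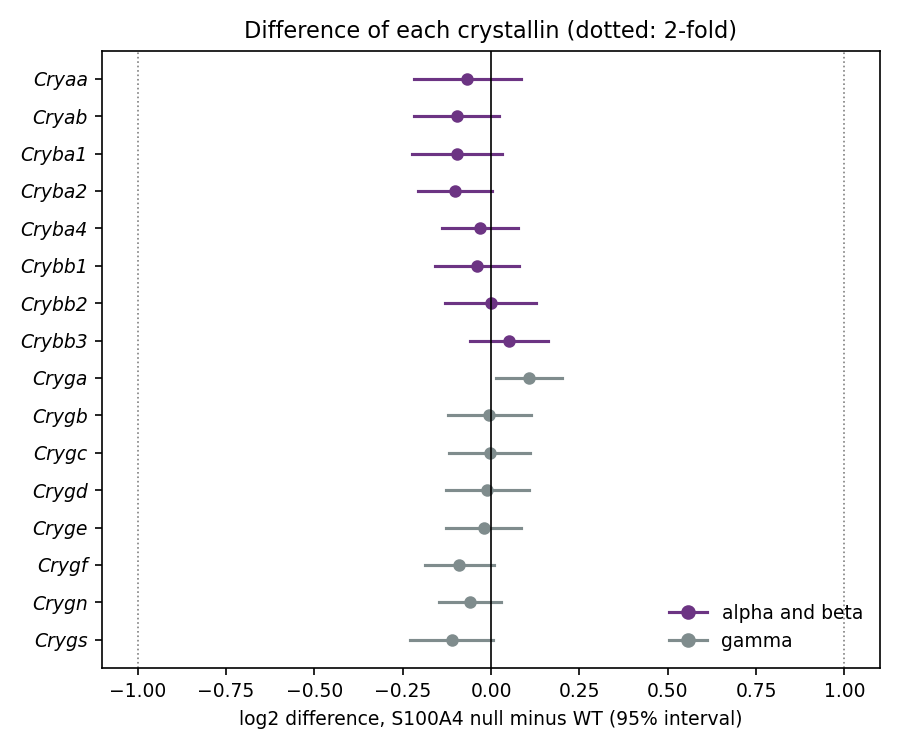
Each point is the log2 difference of 1 crystallin gene between S100A4 null and WT (horizontal axis, S100A4 null minus WT), with its 95% interval as a line, for the 8 alpha and beta crystallins and the 8 gamma crystallins. Dotted lines mark a 2-fold difference, and the intervals of the alpha and beta crystallins run from -0.22 to 0.16.

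In 3 of the 8 members both S100A4 null values were below both WT values (Cryab, Cryba1 and Cryba2), and in 5 they overlapped. Over all genes tested, 23.2% were ordered this way, 23.7% had both S100A4 null values above both WT values, and 46.9% did not overlap in either direction. The low values came mostly from 1 library. Of the 8 members, 6 were lowest in the first S100A4 null pool, where the median member stood at 90.7% of its WT mean, and in the second S100A4 null pool the median was 100.2%. The members' SD as a share of the mean was 0.347% to 10.6% in S100A4 null and 0.0829% to 3.59% in WT, and it was larger in S100A4 null for 6 of 8. Counting error alone would give at most 0.0851%, and the WT spread of Cryba4, 0.0829%, was close to its own counting error of 0.0817%. Without the first S100A4 null pool, 4 members were below 0 and 4 above, from -0.06 to 0.07 on the log2 scale. Without the second, Cryab, Cryba1, Cryba2 and Crybb1 passed the test (log2 difference -0.15, -0.15, -0.14 and -0.15, limma adjusted p = 0.0213, 0.0247, 0.0286 and 0.02). That fit called 4.15% of the 14569 genes it tested and 1.11% as lower in S100A4 null. In it the lone S100A4 null library is assumed to vary like the others.

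**Figure D3:**
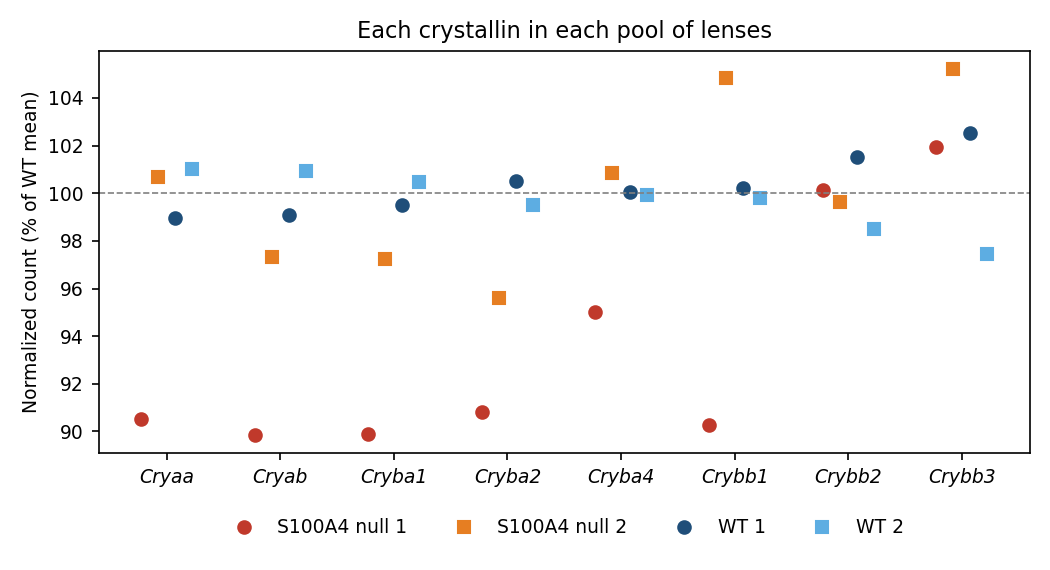
Points give the normalized count of each of the 8 genes in each library as a percent of the mean of the 2 WT libraries (vertical axis, dashed line at 100%), with circles and squares for the first and second pool of each genotype. The first S100A4 null pool lies near 90% for 5 genes, and the second lies between 95.6% and 105%.

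The make-up of the members' reads does not depend on how libraries are scaled. Cryaa was 37.3% and 38.5% of the members' reads in S100A4 null and 37.9% and 38.6% in WT. Cryba1 was 14.3% and 14.4% in S100A4 null and 14.8% and 14.9% in WT, with both S100A4 null libraries lower. Cryab (9.38% and 9.44% against 9.62% and 9.78%) and Cryba2 (4.31% and 4.22% against 4.43% and 4.38%) were ordered the same way. A larger part in both S100A4 null libraries was taken by 2 members, Crybb3 with 6.60% and 6.34% against 6.18% and 5.86%, and Cryba4 with 4.86% and 4.79% against 4.76% and 4.74%. Crybb2 (18.3% and 16.9% against 17.2% and 16.7%) and Crybb1 (4.98% and 5.37% against 5.14% and 5.11%) overlapped. The lowest exact permutation p of a member's part was 0.333, adjusted to 0.533 over the 8 members. A p of 0.333 is the smallest possible with 2 against 2 libraries, so no part could pass this test. The parts add up to all of the members' reads, so they are not independent of each other, and groups that do not overlap are common in these libraries, with 46.9% of all genes tested by deposited value.

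Ratios between members and subgroups are likewise free of the scaling. Reads of the acidic beta crystallins were 0.788 and 0.819 of those of the basic ones in S100A4 null and 0.839 and 0.868 in WT. The ratio was lower in both S100A4 null libraries, with means of 0.803 and 0.854 (exact permutation p = 0.333, adjusted p = 0.583 over 7 ratios). A p of 0.333 is the smallest this test can give here. By deposited value, 46.9% of all genes tested did not overlap between genotypes. The ratio of Cryaa to Cryab was 3.98 and 4.08 in S100A4 null and 3.94 and 3.95 in WT (exact permutation p = 0.333, adjusted p = 0.583). Crybb3 to Crybb2 (0.362 and 0.375 against 0.359 and 0.352) also did not overlap between genotypes. Nor did Cryba1 to Crybb2 (0.785 and 0.853 against 0.857 and 0.892). The alpha to beta ratio was 0.875 and 0.923 in S100A4 null and 0.906 and 0.937 in WT, and the genotypes overlapped. The divergent neighbors Cryba4 and Crybb1 had a ratio of 0.976 and 0.892 in S100A4 null and 0.926 and 0.929 in WT.

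Levels of different genes were compared per length, as the percent of a library's reads on each kb of merged exon. Cryaa was the highest, with a mean of 8.49% per kb over the 4 libraries and a range of 8.24% to 8.62%. Cryba1 (mean 4.24%) and Crybb2 (mean 3.97%) followed, and their ranges overlapped. Below them came Cryab (2.99%), Cryba4 (2.64%), Crybb1 (2.42%), Cryba2 (1.68%) and Crybb3 (1.24%), and no other neighbors in this order overlapped. The order rests on the exon length assigned to each gene. With the GENCODE basic transcripts, Crybb3 moved from rank 8 to rank 5 (mean 3.13% per kb). Crybb2 (8.81%) and Cryba1 (8.68%) overlapped on that scale, as did Cryba4 (2.64%) and Crybb1 (2.62%), now the lowest. Cryaa stayed first, with a mean of 13.1% per kb.

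**Figure D4:**
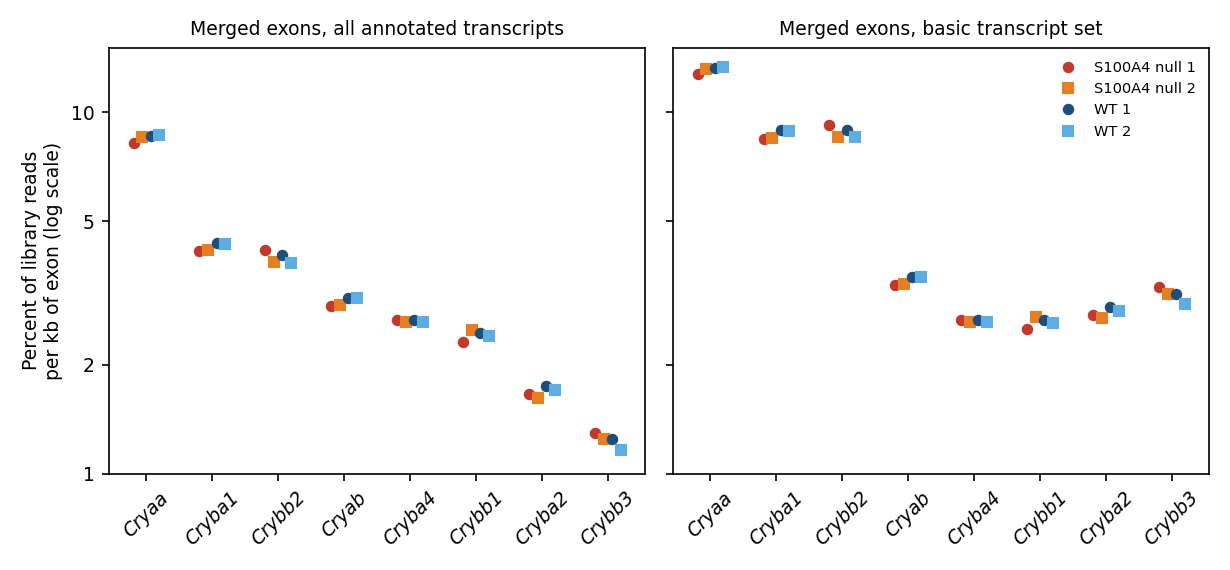
Points give the level of each of the 8 genes in each library, as the percent of library reads per kb of exon on a log axis, with exon length from all annotated transcripts on the left and from the basic transcripts on the right. Cryaa is highest in both panels, and Crybb3 is the lowest on the left and at rank 5 on the right.

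The gamma crystallins, the other family of abundant lens crystallins, were read beside the members. None of the 8 gamma genes passed the test, and their median log2 difference was -0.02, with values from -0.11 to 0.11. Their summed share of reads was 20.4% and 19.7% in S100A4 null and 20.3% and 19.8% in WT. The ratio of alpha and beta to gamma reads was 2.25 and 2.33 in S100A4 null and 2.31 and 2.34 in WT. Its exact permutation p was 0.667, and the genotypes overlapped. Crygb was at 3109309 and 3242891 in S100A4 null and at 3193355 and 3182058 in WT, and Crygd was at 2946442 and 3068991 against 3024160 and 3032806. Cryga was at 370765 and 401927 against 360673 and 356069, with both S100A4 null values higher (log2 difference 0.11, SE 0.05, limma adjusted p = 0.188, the lowest of the 8). Crygs, the gamma crystallin made in the adult cortex, was at 2931352 and 3048419 against 3288869 and 3168601, with both S100A4 null values lower (log2 difference -0.11, SE 0.06, limma adjusted p = 0.320). Reads that matched more than 1 locus were not counted by the authors, and how many gamma crystallin reads this left out was not tested.

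The small heat shock proteins, the wider family of Cryaa and Cryab, had 6 of 8 listed genes in the table, and 1 of the 6 fell. Of all genes tested, 1.33% were called lower. Hspb1, a chaperone of stressed cells, had a mean of 25044 in S100A4 null and 28052 in WT (log2 difference -0.17, SE 0.05, limma adjusted p = 0.0254). That call was lost without the first S100A4 null pool (log2 difference -0.05, limma adjusted p = 0.578), without either WT pool, with equal library totals over all genes or outside the crystallins, with quantile normalization, without a variance trend, and in edgeR and DESeq2. In those settings other than the one without the first S100A4 null pool, the log2 difference was -0.14 to -0.18. Over all alternatives its adjusted p ran from 0.000163 to 0.753. Hspb2, which shares the Cryab locus, had means of 1481 and 1473, and Hspb11 had means of 741 and 817, and neither passed the test. The median log2 difference of the 6 genes was -0.12.

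None of 23 regulators of crystallin genes passed the test, and their median log2 difference was -0.04. Tdrd7, a component of RNA granules in fiber cells whose loss causes cataract, was at 120625 and 126036 in S100A4 null and at 127273 and 128550 in WT. Maf, a factor of the lens known to act on crystallin promoters, had a mean of 35356 in S100A4 null and 36585 in WT (log2 difference -0.05, SE 0.04, limma adjusted p = 0.577). Prox1, a homeobox factor of fiber differentiation, had means of 18899 and 20495, both S100A4 null values were lower, and its limma adjusted p was 0.0861. Of 12 lens fiber markers, which include Cryga and Crygd, 1 fell, beside 1.33% of all genes tested. Grifin, a galectin-related protein of the fiber cytoplasm, was at 103287 and 103497 in S100A4 null and at 125413 and 121830 in WT (log2 difference -0.26, SE 0.04, limma adjusted p = 1.24e-05), and that call was lost in limma without a variance trend (adjusted p = 0.259, the highest over its alternatives). None of 10 lens epithelium markers passed, and their summed level was 46934 and 48266 in S100A4 null and 46629 and 47778 in WT. Slc2a1, Cp and Npnt were the most abundant of them.

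Of the marker lists of cells next to the lens, those of rods and cones and of pigment cells had most of their members pass the test as higher in S100A4 null, and the others did not. Of all genes tested, 5.62% passed as higher. Of 19 rod and cone markers 18 rose, with a median log2 difference of 1.81 and a summed level of 17904 and 17542 in S100A4 null against 7996 and 8373 in WT. Their most abundant gene was Gnb1, a G protein subunit not limited to photoreceptors, followed by Gnat1 (3339 and 3327 against 736 and 782) and Prph2 (1628 and 1625 against 341 and 414). Of 7 pigment cell and pigment epithelium markers 6 rose, with a summed level of 1690 and 1708 against 421 and 555. Ttr, Dct and Tyrp1 were the most abundant of these, and Dct, an enzyme of melanin synthesis, was at 581 and 582 against 31.3 and 44.9. Of 6 Müller glia markers 3 rose (Apoe, Slc1a3 and Rlbp1), and Vim and Dkk3, the most abundant, did not pass. The summed glia level was 166971 and 177728 against 169269 and 170904. It was mostly Vim (78205 and 87448 against 88420 and 89285) and Dkk3 (78434 and 80316 against 77855 and 78029). The sum therefore does not show the 3 that rose, of which Apoe was at 9011 and 8824 against 2170 and 2690.

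Blood cell markers rose in 2 of 7 cases (Hbb-bs and C1qa), with a summed level of 368 and 317 against 191 and 119, and Hbb-bs, C1qa and Hba-a1 led that list. All 7 log2 differences were above 0, from 0.85 to 1.69. Reads were few, with 73 and 35 against 17 and 13 for C1qa. Endothelial markers rose in 1 of 5 cases (Kdr), with a summed level of 182 and 198 against 97.1 and 137, and Tek, Kdr and Pecam1 led it. Of 5 corneal markers 2 were in the table. Aldh3a1, which is shared with other eye tissues, was at 1527 and 1682 against 1600 and 1615, Krt12 was at 9.42 and 6.08 against 5.22 and 0, and Aldh3a1 did not pass the test. No measured marker of the rod and cone, glia, pigment, blood or endothelial lists was at 0 in any library, and Slc45a2 of the pigment list and Ptprc of the blood list were not in the table. The rod and cone list took 0.0256% and 0.0234% of the reads in S100A4 null and 0.0109% and 0.0112% in WT. Its part in the crystallin values was not tested.

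**Figure D5:**
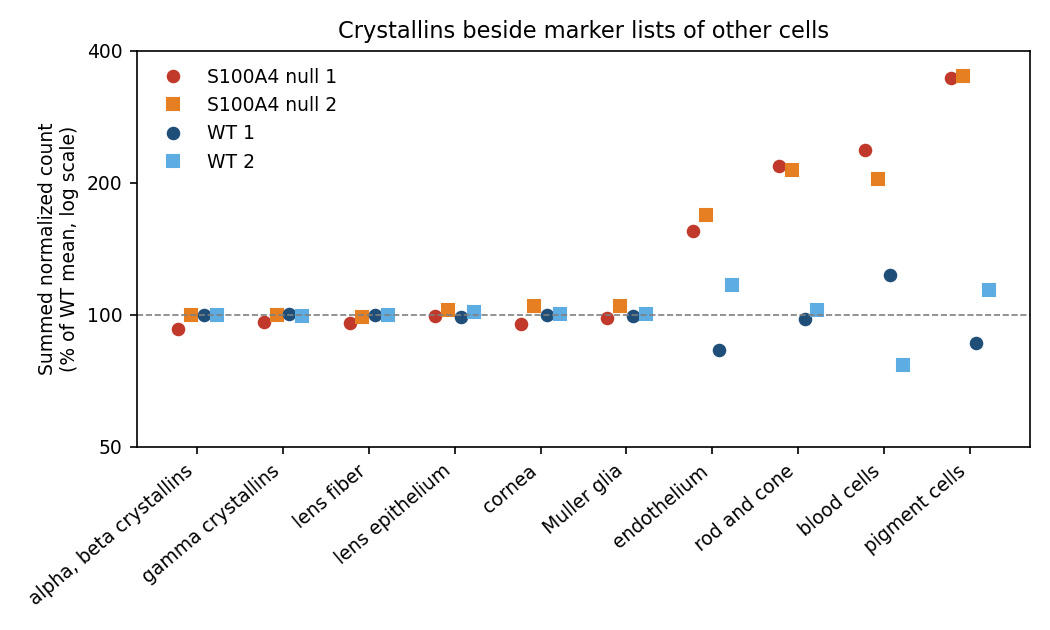
Points give the summed normalized count of each gene list in each library as a percent of the mean of the 2 WT libraries, on a log axis with a dashed line at 100%. The alpha and beta crystallins lie between 92.9% and 100.1%, the rod and cone list is at 219% and 214% in S100A4 null, and the pigment cell list is at 346% and 350%. The Müller glia sum is mostly Vim and Dkk3.

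A small set of other genes followed the members' mean profile most closely. That profile, in log2 units centred over the 4 libraries, was -0.07 and 0.03 in S100A4 null and 0.03 and 0.02 in WT. Among 3575 genes outside the crystallins with a mean value of at least 1000, the 5 nearest by root mean square distance were Srsf4, Sucla2, Selenow, Otud5 and Copz1, at 0.0023 to 0.0068 log2 units, where the median gene was at 0.0588. Srsf4, a splicing factor, was at 1791 and 1927 in S100A4 null and at 1928 and 1919 in WT. Selenow, a small selenoprotein, was at 14704 and 15641 against 15714 and 15668. With 4 libraries, nearness says only that these genes too were low in the first S100A4 null pool and level in the other 3. Of the members themselves, Cryba4 lay closest to the mean profile, at a distance of 0.0100, and Crybb3 lay furthest, at 0.0577.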

How the data were processed

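Polyadenylated RNA of lens pools was sequenced by the authors from a stranded library, trimmed with Trim Galore, aligned with STAR to GRCm38 (mm10) and counted per gene with HTSeq from reads at a single locus, per the paper's methods and the submitters' processing notes, whose versions are not given in the sources used here. The deposited values are a normalized signal: gene counts divided by DESeq2 size factors by the authors, kept for genes with at least 10 reads in a library. Whole reads were recovered from them (100% of values within 0.02 read), with 1 read worth 0.856, 1.01, 1.04 and 1.09 in the libraries. Symbols were matched for 14782 of 14924 genes.

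Groups came from the labels. limma 3.58.1 (variance trend, R 4.3.3) was run on log2(value + 1), keeping the 14780 genes that reached 10 in any library, with Benjamini-Hochberg adjustment, so fold changes are on the log2(value + 1) scale. A gene was called at an adjusted p of 0.05. edgeR 4.0.16 and DESeq2 1.42.0 were alternatives on the recovered reads. Single values were compared by exact two-sided permutation tests. Named genes were all members, S100a4, S100a5, the called members of each related list or its 3 most abundant, the 3 most abundant of each marker list and the 5 nearest profiles; further marker genes were named after their values were seen. The members and lists were chosen with earlier results of these data known. Other settings were the pseudocount, the filter, the scaling, the trend, the replicate block, the 2-fold rule and each library left out. Protein sequences were not used here.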

Additional observations from a re-analysis of the deposited data

How the results depend on the processing

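No alpha or beta crystallin was called under any of the alternatives except without the second S100A4 null library, where 4 were and 4.15% of all genes were called (443 higher and 161 lower). The 16 other fits of each member moved its log2 difference between -0.15 and 0.09. Crybb2, nearest to 0, changed sign with TMM factors (0.0016), with equal library totals (0.028) and in edgeR (0.0023). Quantile normalization set 7 of the 8 members to a difference of 0 by construction, since they hold the same rank in every library. Leaving out 1 library at a time gave ranges of -0.14 to 0.010 for Cryaa, -0.15 to -0.04 for Cryab, -0.15 to -0.04 for Cryba1, -0.14 to -0.06 for Cryba2, -0.074 to 0.012 for Cryba4, -0.15 to 0.068 for Crybb1, -0.023 to 0.020 for Crybb2 and 0.01 to 0.09 for Crybb3, and 0 to 4 members called.

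The difference in summed share was -1.09 to -0.475 points with 1 library left out and -0.429 points outside the reads of Gm42418, a total chosen after seeing the data, as were the basic exon lengths. The sum of the deposited values was 3.58% lower in S100A4 null (-3.58%), against a share 1.68% lower. That sum was 92.9% of the WT mean in the first S100A4 null pool and 99.9% in the second, which lay between the WT pools (exact permutation p = 0.667). In the make-up, leaving out 1 library gave differences of -0.974 to 0.285 points for Cryaa, -0.146 to 0.251 for Crybb1 and -0.0502 to 1.32 for Crybb2, and kept the direction of the other 5.

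Over all genes, 831 were called higher and 197 lower. With a mean value of at least 50, 549 were higher. Without a variance trend 179 were higher and 8 lower, and the 2-fold rule left 539 and 11. Lower calls numbered 55 with equal totals, 50 with equal totals outside the crystallins and 91 in DESeq2. With 1 library left out, 404 to 795 were higher and 87 to 161 lower. Causes were not tested. Libraries share replicate numbers, but deviations of equally numbered libraries correlated at r = 0.0119 over 14780 genes, so the numbers were not taken as pairs. The replicate block gave 982 higher and 348 lower and called no member. Precision rests on 2 pools a genotype, and no lower depth was tried.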
